A study of Mus musculus with 16 samples.

Results

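Imprinted genes outside the Dlk1-Dio3 cluster were examined in 16 mouse samples: 1 of mouse embryonic fibroblasts (MEFs), 2 embryonic stem (ES) cell lines, 1 iPS line made with retroviruses, and 12 iPS samples made with human artificial chromosome (iHAC) vectors. The genes were chosen by name from imprinted clusters and single imprinted loci, 48 in all at 21 places, and every probe carrying 1 of those names was taken. The array held 95 such probes for 47 of the genes, out of 41174 probes, and Kcnk9 had none of that name. A probe was tested where its spots stood well above background on 1 array or more, which held for 84 of the 95 probes and 46 genes. Slc22a3, an organic cation transporter of the Igf2r cluster, was never well above background. Of the 95 probes, 55 were well above background on all 16 arrays.

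Clones 1-A3, 1-B, 1-C3 and 1-D6 (iHAC1-iPS) carried a vector with 2 copies of each of 4 factors, Klf4, c-Myc, Sox2 and Oct4. Clones 2-B1, 2-C6, 2-E and 2-N (iHAC2-iPS) carried the same cassettes together with 2 further Oct4 copies and an shRNA against p53. The iHAC-free iPS lines had lost iHAC2: F-B1 came from 2-B1, F-C5 from 2-C6, F-E4 from 2-E and F-N7 from 2-N. All 12 started from C57BL/6 MEFs and mimics of microRNAs were added during their derivation. B6ES has the C57BL/6 background, TT2 is a cross of C57BL/6 with CBA, and the retroviral iPS line 20D17 has a C57BL/6 and DBA background. ES and iPS cells were grown on mitomycin C-treated ICR MEF feeders, so each group but the MEFs may hold feeder RNA. Each sample is 1 culture of 1 clone or line on 1 array, and p-values measure the spread between these. MEFs and 20D17 had 1 array each and were not tested.

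An imprinted gene is expressed mainly from the copy inherited from 1 parent, because a control region was methylated in the egg or the sperm and keeps that mark in the body. Genes expressed from the paternal copy, such as Igf2, Plagl1, Peg3 and Nnat, often promote growth, and genes expressed from the maternal copy, such as H19, Cdkn1c, Phlda2 and Grb10, often restrain it. Members of a cluster share a control region. Several of the genes, among them Slc22a2, Slc22a3, Tssc4, Cd81, Nap1l4, Osbpl5, Dcn and Gatm, are known as imprinted mostly in the placenta, and Ube3a in neurons. An array of this kind reads the total transcript of both copies and does not read methylation. In a culture, fewer cells expressing a gene and less RNA per cell cannot be told apart.

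Promoter sequences of some members are shown because Zfp57, a keeper of imprints that binds methylated TGCCGC, is among the genes measured. Of these members, Nnat passed the test below in no comparison of all samples. Each sequence runs from 250 bases before the start of the RefSeq gene to 50 after it. Capitals mark TGCCGC or its reverse complement GCGGCA, searched on both strands.
Plagl1 promoter, GRCm38.p6 chr10:13090582-13090881, + strand: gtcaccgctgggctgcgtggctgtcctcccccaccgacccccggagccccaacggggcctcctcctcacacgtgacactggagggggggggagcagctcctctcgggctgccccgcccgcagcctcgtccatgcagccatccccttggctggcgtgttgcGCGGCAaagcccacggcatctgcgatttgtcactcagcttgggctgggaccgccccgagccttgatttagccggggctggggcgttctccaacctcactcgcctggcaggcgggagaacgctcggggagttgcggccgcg
Nap1l5 promoter, GRCm38.p6 chr6:58907077-58907376, - strand: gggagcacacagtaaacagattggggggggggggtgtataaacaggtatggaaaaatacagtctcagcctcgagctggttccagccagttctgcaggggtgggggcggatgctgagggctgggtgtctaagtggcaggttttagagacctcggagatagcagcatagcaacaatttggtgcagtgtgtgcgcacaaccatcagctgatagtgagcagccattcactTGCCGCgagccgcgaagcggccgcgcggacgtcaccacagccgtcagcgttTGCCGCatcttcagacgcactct
Grb10 promoter, GRCm38.p6 chr11:12037371-12037670, - strand: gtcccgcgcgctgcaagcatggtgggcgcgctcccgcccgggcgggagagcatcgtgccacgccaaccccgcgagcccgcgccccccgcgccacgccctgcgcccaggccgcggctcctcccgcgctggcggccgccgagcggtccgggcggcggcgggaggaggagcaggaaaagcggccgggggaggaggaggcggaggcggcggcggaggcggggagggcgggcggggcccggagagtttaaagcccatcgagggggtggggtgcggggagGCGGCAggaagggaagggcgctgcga
Nnat promoter, GRCm38.p6 chr2:157559828-157560127, + strand: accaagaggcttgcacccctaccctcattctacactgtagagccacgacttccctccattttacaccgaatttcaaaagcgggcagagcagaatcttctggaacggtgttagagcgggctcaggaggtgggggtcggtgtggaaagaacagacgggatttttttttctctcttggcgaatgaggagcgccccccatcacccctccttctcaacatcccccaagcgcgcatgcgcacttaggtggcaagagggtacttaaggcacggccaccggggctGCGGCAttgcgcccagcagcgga
Phlda2 promoter, GRCm38.p6 chr7:143502475-143502774, - strand: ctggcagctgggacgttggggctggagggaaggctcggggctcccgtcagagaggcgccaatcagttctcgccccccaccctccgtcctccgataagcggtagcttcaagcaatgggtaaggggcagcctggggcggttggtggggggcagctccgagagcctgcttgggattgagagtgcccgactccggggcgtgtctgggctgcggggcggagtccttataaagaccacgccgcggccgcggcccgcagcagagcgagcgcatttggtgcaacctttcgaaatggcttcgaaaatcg
Peg12 promoter, GRCm38.p6 chr7:62464461-62464760, - strand: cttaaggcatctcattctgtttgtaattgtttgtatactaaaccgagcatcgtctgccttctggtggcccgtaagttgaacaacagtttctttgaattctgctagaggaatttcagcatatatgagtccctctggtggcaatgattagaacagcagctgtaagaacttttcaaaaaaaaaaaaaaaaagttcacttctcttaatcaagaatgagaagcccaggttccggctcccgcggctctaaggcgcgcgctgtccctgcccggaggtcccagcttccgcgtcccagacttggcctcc
In the RefSeq promoter table of build GRCm38.p6, 39 members had 61 promoters, 1 or more for each gene. The 6 letters stood in 15 of the 61 (24.6%), against 11.6% of all 32851 promoters, and the median number of CpG was 15 against 7. They stood in Plagl1, in Nnat, in 1 of the 2 Grb10 promoters and at 2 places in Nap1l5, while the windows of Phlda2 and Peg12 lacked them. The windows of Slc22a18 and Slc38a4, which also differed (below) and are not shown, lacked them too. Of the 13 genes with a promoter that differed between iHAC1-iPS and ES cells (below), 6 had the letters (Calcr, Grb10, Nap1l5, Plagl1, Slc22a2 and Snrpn), and so did 8 of the other 25 tested. These matches are descriptions of letters and are no evidence of binding.

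Levels are log2 processed signal minus the 75th percentile of the array, so 0 is the level of that percentile. Values of a group are listed in the order of the clone names above. Groups were compared with limma, and a probe was called with a Benjamini-Hochberg adjusted p under 0.05 over all 31415 tested probes and a difference of at least 2-fold. The arrays lay on 4 slides in 2 scan sessions. ES, 20D17, MEF and iHAC1-iPS arrays were scanned in session 1, and iHAC2-iPS and iHAC-free arrays in session 2, so that session and group cannot be told apart in a comparison across them. Of 7 pluripotency markers measured, 6 were called lower in iHAC1-iPS cells than in ES cells (Dppa5a, Esrrb, Sox2, Tcl1, Utf1 and Zfp42) and Pou5f1, present on the vector as Oct4, was called higher, whereas in iHAC2-iPS cells only Zfp42 was called and in iHAC-free lines none was. All 10 fibroblast markers were above background on every array, and the summed level of the 10 (in multiples of the 75th percentile) was 350 in MEFs, 55.1 to 159 in ES, 202 to 510 in iHAC1-iPS, 99.8 to 301 in iHAC2-iPS and 167 to 314 in iHAC-free cells.

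Most calls of imprinted genes were made in the comparisons that included iHAC1-iPS cells. Against ES cells, 19 of the 84 probes were called in iHAC1-iPS cells (22.6%), where 14.3% of all tested probes were called (7.17% higher and 7.13% lower). Of the 19, 11 were higher and 8 lower, for 8 and 6 genes. Against ES cells, 3 probes were called in iHAC2-iPS cells (3.57%, with 6.80% of all probes called, 3.52% higher and 3.28% lower) and 2 in iHAC-free lines (2.38%, with 0.363% of all probes called, 0.188% higher and 0.175% lower). Between iHAC2-iPS and iHAC-free cells 1 probe was called (1.19%, with 0.818% of all probes, 0.213% higher and 0.605% lower in iHAC2-iPS cells). Between iHAC1-iPS and iHAC2-iPS cells, 21 were called (25.0%, with 20.0% of all probes called, 8.98% higher and 11.0% lower in iHAC1-iPS cells), 11 higher and 10 lower. At an unadjusted p under 0.05 the member counts were 31, 19, 15, 13 and 38 of 84 in the order just given. The share of all probes at that threshold was not counted, so these counts cannot be set against it. The median log2 difference of the members lay between -0.14 and 0.17 in the 5 comparisons, and that of all probes between -0.03 and 0.06. In all, 31 probes of 19 genes were called in at least 1 comparison, and 27 tested genes in none.

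**Figure D1:**
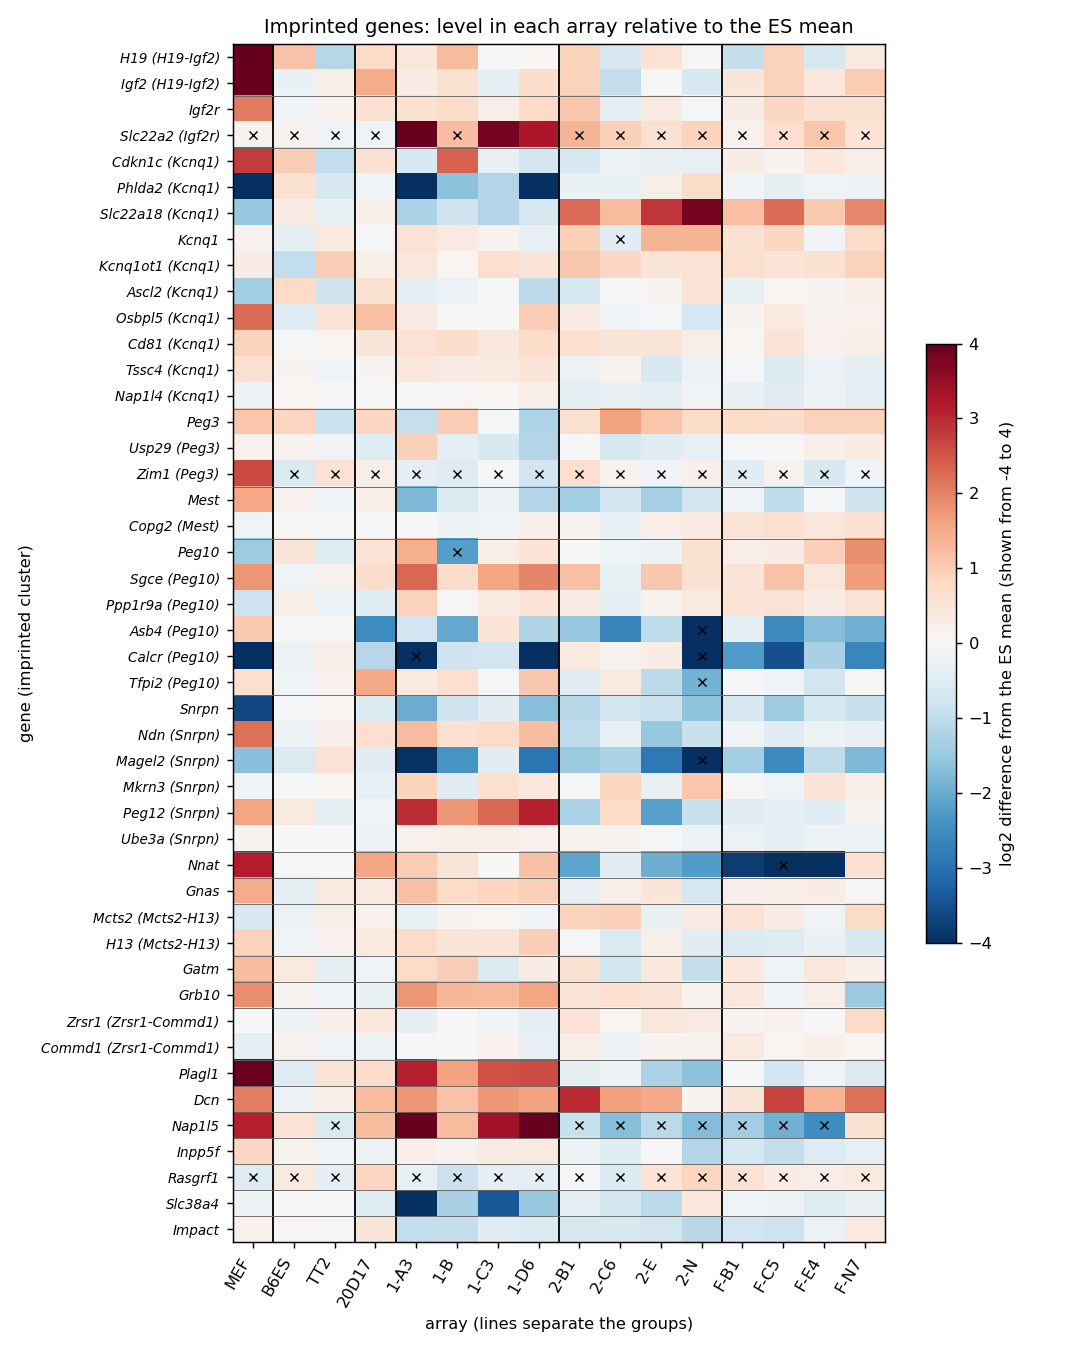
Log2 level of 46 imprinted genes (rows, 1 probe each, that with the highest mean, with the cluster in brackets) in each of 16 arrays (columns), relative to the mean of the 2 ES lines, with crosses where the probe was not well above background. The 4 iHAC1-iPS columns are red for Plagl1, Peg12, Grb10 and Nap1l5 and blue for Phlda2 and Slc38a4, and Slc22a18 is red in all 8 iHAC2-iPS and iHAC-free columns.

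In iHAC1-iPS cells 6 of 20 tested paternally expressed genes were called higher than in ES cells and 2 lower, while of 22 maternally expressed genes 1 was called higher and 3 lower. Grb10, Gnas, H13 and Inpp5f, for which the expressed copy depends on cell type or transcript, were counted in neither class. Of these, Grb10, maternal outside neurons, was called higher with all 3 probes. Gnas was called lower with 2 of 6 probes, and H13 and Inpp5f were not called. The median log2 difference was -0.02 over the paternal probes and 0.05 over the maternal probes, against 0.04 over all probes, and the difference between the classes was not tested. Plagl1, a zinc finger transcription factor also called Zac1 (probe at mm9 chr10:12851280-12851339), stood at 0.29 in B6ES and 1.31 in TT2 and at 3.91, 2.40, 3.34 and 3.40 in the iHAC1-iPS clones. All 4 clones lay above both ES lines, by 2.46 on the log2 scale (SE 0.48), which is 5.51-fold (limma adjusted p = 0.00422). MEFs had 5.15. Its other, dimmer probe was at -5.24 and -4.19 in the ES lines and between -3.76 and -2.14 in the clones, and was not called in that comparison.

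Nap1l5, a nucleosome assembly retrogene inside an intron of another gene (chr6:58855387-58855446), was at -4.76 and -5.91 in the ES lines, below background in TT2, and at -0.88, -4.07, -1.98 and -1.16 in the iHAC1-iPS clones. The clones lay 3.32 higher (SE 0.90, 9.96-fold, limma adjusted p = 0.0216), with 1-B nearest to the ES lines. With normexp background correction the difference was 1.53, and the call was lost with the compared groups alone. In iHAC2-iPS cells it was not well above background in any clone, and of the iHAC-free lines it was above background only in F-N7, at -4.74.

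Peg12, a Frat family gene at the end of the Snrpn cluster (chr7:69607011-69607070), was at 0.37 and -0.37 in the ES lines and at 2.95, 1.76, 2.29 and 3.12 in the iHAC1-iPS clones. The difference was 2.53 (SE 0.62, 5.78-fold, limma adjusted p = 0.0142) with no overlap. Other genes of the cluster were not called higher. Ndn, which encodes necdin, was at -0.36 and 0.04 in the ES lines and 1.11, 0.44, 0.61 and 1.08 in the clones, also above both, a difference of 0.97 (SE 0.30, adjusted p = 0.0357) that stayed just under 2-fold, and it passed 2-fold without 1-B (1.10) or without 1-C3 (1.04). Snrpn, the splicing protein SmN, was called lower by 1 of its 2 overlapping probes (2.80 and 2.98 in the ES lines, 0.90, 2.08, 2.44 and 1.20 in the clones, difference -1.24, SE 0.40, adjusted p = 0.0464), and the other gave -1.22 with an adjusted p of 0.0548. Magel2 and Mkrn3 were not called: Magel2 was at -4.33, -2.72, -0.82 and -3.31 in the clones and at -0.95 and 0.21 in the ES lines, and Mkrn3 at -1.95, -3.29, -2.20 and -2.41 against -2.90 and -2.77.

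Sgce, epsilon-sarcoglycan, shares a paternally expressed promoter region with Peg10 on chromosome 6. Its brighter probe (chr6:4624457-4624516) stood at 1.36 and 1.70 in the ES lines and at 3.82, 2.24, 3.11 and 3.49 in the iHAC1-iPS clones, a difference of 1.64 (SE 0.50, 3.11-fold, limma adjusted p = 0.0346), and the other probe gave 1.52 (adjusted p = 0.0495). Peg10, a retrotransposon-derived gene, was at -3.28 and -4.26 in the ES lines and at -2.32, -5.97, -3.49 and -3.21 in the clones, where 1-B was not well above background, and it was not called. The remaining calls among paternally expressed genes were of dim probes. A Usp29 probe (a ubiquitin-specific protease next to Peg3) was above background in 2 of 4 clones and in neither ES line. The clone mean was 1.64-fold above the background floor (defined below) of the ES arrays (limma adjusted p = 0.0436). The other, brighter Usp29 probe was not called. For Kcnq1ot1, the long non-coding RNA that silences the Kcnq1 cluster in cis, 1 of 4 tested probes was called higher (1.51, SE 0.49, adjusted p = 0.0468). That probe was above background in 1 of the 2 ES lines and 3 of the 4 clones, and the brightest Kcnq1ot1 probe differed by 0.43 (SE 0.40), which was not called. With normexp background correction the called Usp29 and Kcnq1ot1 differences were 0.11 and 0.19 and neither was called, and that of Kcnq1ot1 was 0.40 without B6ES.

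Grb10, an adaptor that restrains insulin and growth factor signalling and is expressed from the maternal copy outside neurons, was called with all 3 of its probes. The brightest (chr11:11830965-11831024) was at 3.60 and 3.41 in the ES lines, at 5.29, 4.83, 4.80 and 5.10 in the iHAC1-iPS clones and at 5.35 in MEFs. The clones lay 1.5 above the ES lines (SE 0.41, 2.82-fold, limma adjusted p = 0.0217), and the other probes gave 1.34 and 1.35. Slc22a2, an organic cation transporter, was not well above background in the ES lines, MEFs, 20D17 or any iHAC2-iPS or iHAC-free sample. It was above it in 3 of the 4 iHAC1-iPS clones (-2.80, -3.96 and -4.57, with 1-B at -6.56). The clone mean was 2.27-fold above the background floor of the ES arrays (limma adjusted p = 0.00767, log2 difference 3.32, and 0.58 with normexp background correction). Igf2r, at the same locus, ranged from 2.72 to 3.0 in ES and from 3.10 to 3.67 in the clones and was not called.

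**Figure D2:**
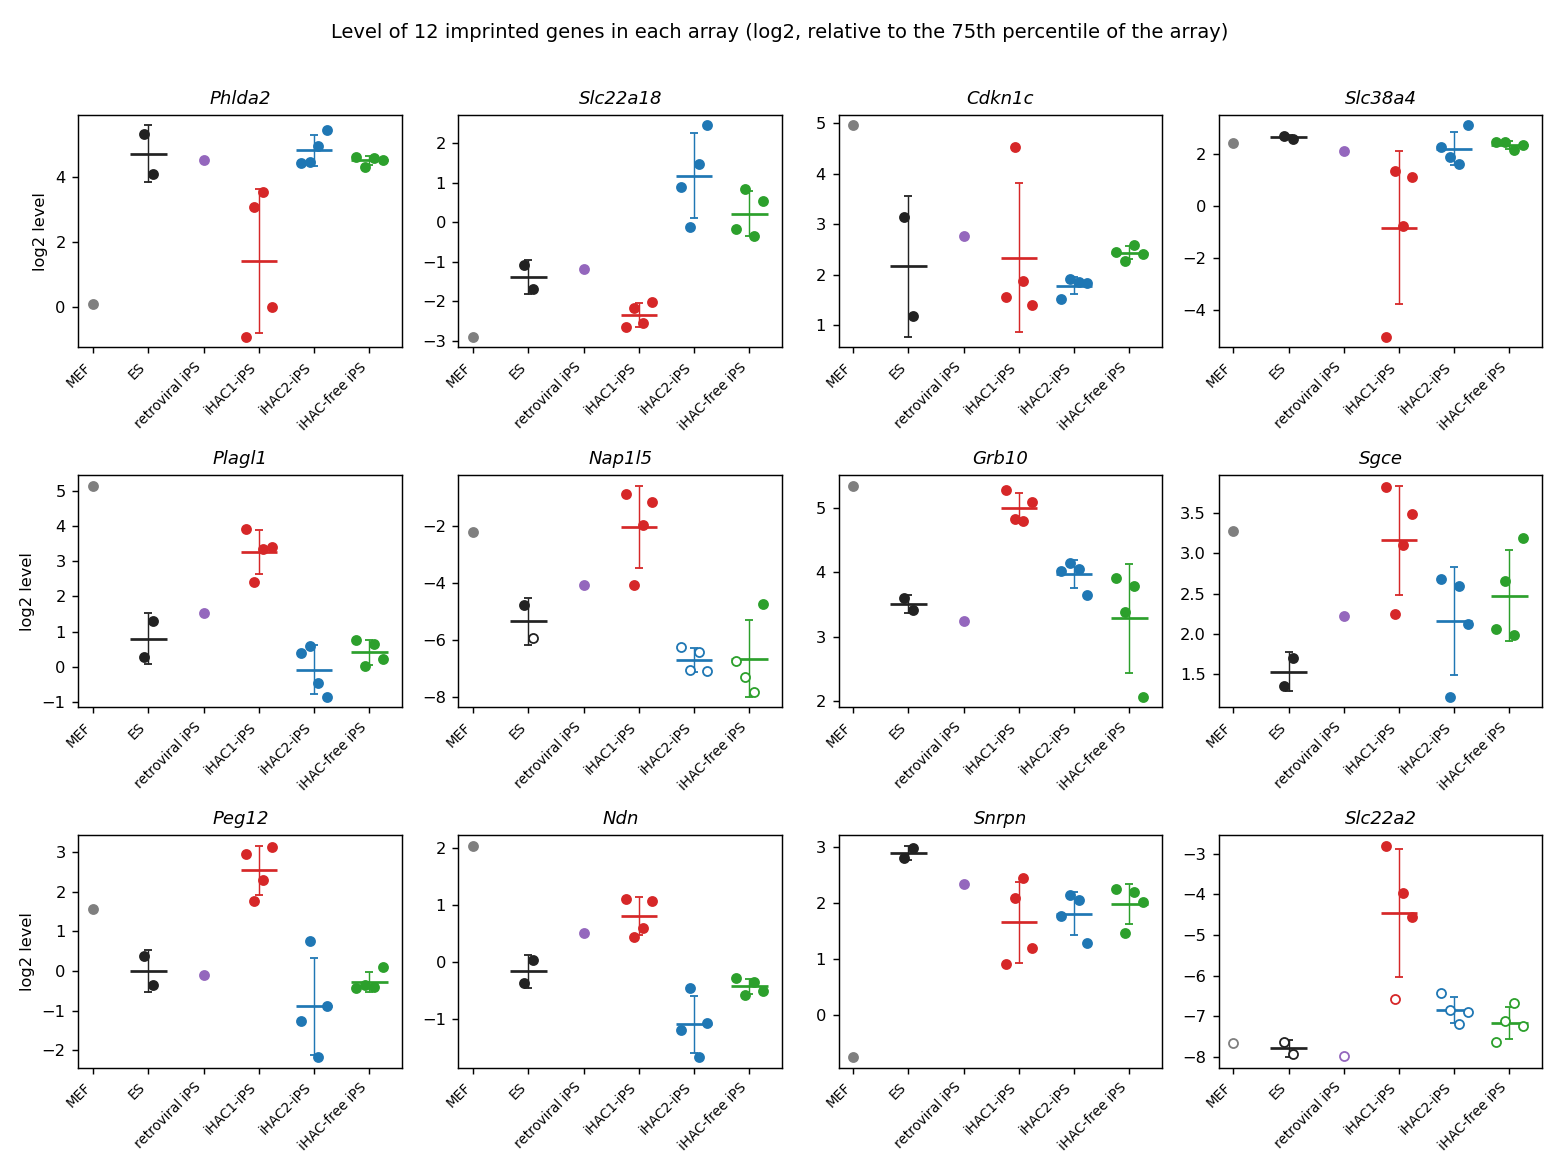
Log2 level (relative to the 75th percentile of the array) of 12 imprinted genes in every array by group, with a point for each array (open where not well above background), the group mean as a bar and the SD as whiskers where a group has more than 1 array. The iHAC1-iPS points lie above both ES points for Plagl1, Nap1l5, Grb10, Sgce, Peg12, Ndn and Slc22a2 and below them for Phlda2, Slc38a4 and Snrpn, and 1-A3 and 1-D6 are the 2 low points for Phlda2.

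The largest decreases in iHAC1-iPS cells were of Slc38a4 and Phlda2. Slc38a4 encodes an amino acid transporter expressed from the paternal copy. 1 of its 2 probes (chr15:96843897-96846572) was at -0.37 and -0.52 in the ES lines and at -5.81 (below background), -3.22, -4.51 and -2.84 in the clones, a difference of -3.65 (SE 0.77, 12.6-fold lower, limma adjusted p = 0.00647), and -2.04 with normexp background correction. The other, brighter probe (chr15:96825482-96825541) was at 2.70 and 2.59 in the ES lines and at -5.01, 1.34, -0.76 and 1.13 in the clones and was not called, although every clone lay below both ES lines. With both probes 1-A3 was lowest.

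Phlda2, a maternally expressed pleckstrin homology protein that limits placental growth, fell in 2 clones much further than in the other 2. Its brighter probe (chr7:150687474-150687533) was at 5.34 and 4.10 in the ES lines and at -0.93, 3.08, 3.55 and -0.02 in the iHAC1-iPS clones, against 0.09 in MEFs. The mean difference was -3.30 (SE 1.01, 9.85-fold, limma adjusted p = 0.0365), and a second probe that overlaps it gave -3.24 (adjusted p = 0.0363). Of the other maternally expressed genes of the cluster, Slc22a18 was below both ES lines in all 4 clones (values below) but not called. Cdkn1c, the cell cycle inhibitor p57, was at 1.55, 4.53, 1.88 and 1.40 in the same clones and at 3.15 and 1.18 in the ES lines. Kcnq1, Ascl2, Osbpl5, Cd81, Tssc4 and Nap1l4 were not called in this comparison.

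The other calls lower than in ES cells were of dim probes for which further probes of the same gene were not called. They were 1 of 4 tested Ppp1r9a (neurabin) probes (limma adjusted p = 0.0277), 1 of 2 Calcr (calcitonin receptor) probes (adjusted p = 0.0129) and 2 of 6 tested Gnas (G protein alpha subunit) probes. For Ppp1r9a and Calcr the ES mean was 1.44-fold and 1.10-fold above the background floor of the iHAC1-iPS arrays. For Gnas no fold can be given. With normexp background correction the differences of these called probes were between -0.30 and -0.07. The brighter Calcr probe was at -7.20 (below background), -2.04, -1.98 and -5.22 in the clones and at -1.46 and -1.0 in the ES lines, lower in every clone but not called (-2.88, adjusted p = 0.27). The brightest Ppp1r9a probe was at 0.82 and 0.35 in the ES lines and at 0.62 to 1.51 in the clones. The brightest Gnas probe was at 1.69 and 2.43 in the ES lines and at 2.81 to 3.23 in the clones, above both, and was not called.

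These calls depended on the ES lines and the slide. Of the iHAC1-iPS arrays only 1-D6 shared the slide of the ES arrays. Within that slide the 19 differences were 0.64 to 4.74 in size, with a direction that the lack of overlap between the groups had fixed. With slide as a block none of the 19 was called (limma adjusted p from 0.054 to 0.521, unadjusted p under 0.05 for 15), while 2441 of all probes were called in place of 4494. Without B6ES 0 member probes were called, without TT2 7, without 1-A3 7 and without 1-D6 8. Over all probes, 1867 were called without B6ES (5.94%), 3334 without TT2 (10.6%), 3507 without 1-A3 and 3711 without 1-D6. Collagen and fibrillin genes of the fibroblast list moved in the same comparison (5 of 10 called higher: Col1a1, Col1a2, Col3a1, Col5a2 and Fbn1), and MEFs were above ES cells for Plagl1, Nap1l5, Peg12, Sgce and Grb10 and below them for Phlda2 and Snrpn. Slc22a2 was below background in MEFs (-7.66). H19, Igf2 and Cdkn1c, at 6.69, 7.96 and 4.96 in MEFs, had means of 1.88, 3.05 and 2.16 in ES cells. In iHAC1-iPS cells their means were 2.34, 3.35 and 2.34. The part of MEF-like RNA in the called differences was not tested.

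**Figure D3:**
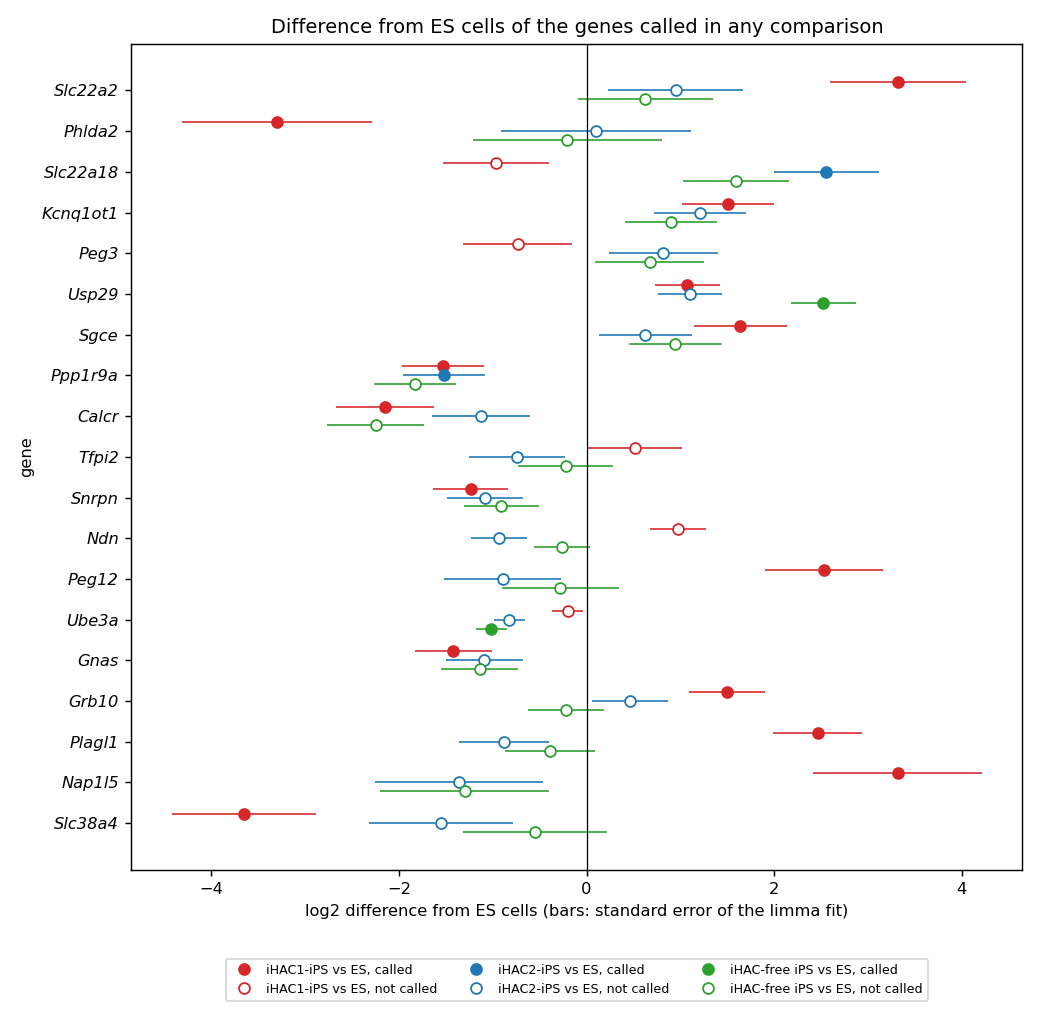
Log2 difference from ES cells (x axis) of the 19 genes called in any of 5 comparisons, with the probe of the largest called difference for each, for iHAC1-iPS (red), iHAC2-iPS (blue) and iHAC-free (green) cells. Whiskers are the standard error of the limma fit, filled points passed the test, and values of probes below background in 1 or more of the groups (among them Slc22a2, Usp29, Kcnq1ot1, Ppp1r9a, Calcr, Gnas and Nap1l5) are fitted values and not bounds. Slc22a18 is the filled blue point at 2.56, and most filled points are red.

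In iHAC2-iPS cells the call against ES cells that both probes of a gene shared was Slc22a18, a maternally expressed membrane transporter next to Phlda2. The brighter probe (chr7:150685129-150685188) was at -1.07 and -1.68 in the ES lines and at 0.90, -0.11, 1.49 and 2.46 in the iHAC2-iPS clones. All 4 clones lay above the ES lines, by 2.56 (SE 0.56, 5.89-fold, limma adjusted p = 0.0193), and the other probe gave 1.66 (SE 0.45, adjusted p = 0.0371). In the iHAC-free lines derived from them it was at -0.18, 0.85, -0.34 and 0.53, again above both ES lines, with a difference of 1.59 that was not called. In iHAC1-iPS clones it was at -2.65, -2.17, -2.54 and -2.0, below both ES lines. Phlda2, its neighbour, in iHAC2-iPS clones was at 4.44, 4.46, 4.95 and 5.44, against 5.34 and 4.10 in the ES lines. The other call was the dim Ppp1r9a probe, again lower, with no fold to be given. The calls of both Slc22a18 probes were lost without B6ES, without TT2 and with the compared groups alone. Without 2-B1 1 member probe was called, without 2-E 1 and without 2-C6 8. Those fits called 1471, 1523 and 3733 of all probes, in place of 2136. Without B6ES 371 of all probes were called and without TT2 319.

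Compared with each other, iHAC1-iPS and iHAC2-iPS cells differed most in Nap1l5 (higher in iHAC1-iPS cells, 6.49-fold above the background floor of the iHAC2-iPS arrays, limma adjusted p = 0.000742), Slc22a18 (11.5-fold lower, adjusted p = 0.000278), Peg12 (10.7-fold higher, adjusted p = 0.000557), Phlda2 (10.6-fold lower, adjusted p = 0.00779) and Plagl1 (10.2-fold higher, adjusted p = 0.000155). With normexp background correction the log2 difference of Nap1l5 was 1.63 in place of 4.67, and still called. Peg12 in the iHAC2-iPS clones was at -1.26, 0.75, -2.17 and -0.88, and Plagl1 at 0.40, 0.60, -0.47 and -0.85. Ndn was at -1.19, -0.45, -1.66 and -1.07, below every iHAC1-iPS clone (3.74-fold, adjusted p = 0.000252). Grb10 was higher in iHAC1-iPS cells with 2 of 3 probes (2.05-fold for the brightest), as were 1 of 2 Sgce probes, 1 Gnas probe, Slc22a2 and Tfpi2, a protease inhibitor.

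Peg3, a paternally expressed zinc finger protein, was called lower in iHAC1-iPS than in iHAC2-iPS cells with all 3 probes, of which 1 was above background in none of the 4 iHAC1-iPS and 1 of the 4 iHAC2-iPS clones. The brightest was at -1.39, 0.54, -0.50 and -1.71 in the iHAC1-iPS clones and at 0.16, 1.14, 0.64 and 0.27 in the iHAC2-iPS clones, so the groups overlapped (difference -1.32, SE 0.47, limma adjusted p = 0.0423). With the compared groups alone the calls of both brighter probes were lost, as was that of the brightest without 1-A3, 1-C3, 1-D6, 2-C6, 2-E or 2-N. The 2 clones with the lowest Phlda2, 1-A3 and 1-D6, also had the lowest Peg3. Both Slc38a4 probes and 1 Ppp1r9a probe were also lower in iHAC1-iPS cells, and with normexp background correction the dimmer Slc38a4 probe was no longer called (-0.99 in place of -2.10). Without 1-A3, 12 member probes were called, and 5470 of all probes in place of 6273. Of the 21 calls, 15 had no overlap between the 4 clones of either group. The share of all called probes without overlap was not counted, so this describes the member probes alone. The vectors, the scan session and the levels of pluripotency markers all differed between these groups and cannot be told apart.

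In iHAC-free lines against ES cells, the 2 called probes belonged to Usp29 and Ube3a. The dim Usp29 probe (chr7:6919806-6919865) was at -6.24 and -5.78 in the ES lines, not well above background, and at -3.86, -3.08, -3.98 and -3.03 in the iHAC-free lines. Their mean was 4.47-fold above the background floor of the ES arrays (limma adjusted p = 0.0179). In the iHAC2-iPS clones this probe was at -5.10, -5.21, -4.32 and -4.99, and it was above background in 2-E alone. It was the call between iHAC2-iPS and iHAC-free cells, with a difference of -1.42 (SE 0.28, adjusted p = 0.0358), for which no fold is given. With each line paired to its clone (replicate block) this difference was no longer called (adjusted p = 0.0839), nor with slide as a block (adjusted p = 0.0638). Within slide 3 the difference was -1.23 and within slide 4 it was -1.60. With normexp background correction it was -0.18, and that from ES cells 0.27 in place of 2.52, neither of them called. The second Usp29 probe ranged from -1.55 to -0.53 over these 8 samples and was not called. Of 3 probes for Ube3a, a ubiquitin ligase, the dimmest was called lower than in ES cells (0.48, 0.23, 0.52 and 0.26 against 1.53 and 1.24, adjusted p = 0.035) and the others were not. Without B6ES no member was called in iHAC-free lines, where that fit called 54 of all probes (0.172%) in place of 114. The Usp29 call against ES cells was also lost without F-N7, and the Ube3a call without any 1 of the 6 arrays. The Usp29 call between clones and lines was lost without 2-B1, without 2-C6 and without any 1 of the 4 lines.

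1 member probe was called between the clones with the vector and the lines without it, and some members differed widely between single clones and lines. Nnat, which encodes neuronatin and is expressed from the paternal copy (chr2:157387978-157388037), was at -0.92 and -0.83 in the ES lines, at -2.98, -1.29, -2.84 and -3.13 in the iHAC2-iPS clones and at -4.67, -5.73 (below background), -5.05 and -0.24 in the iHAC-free lines. The 4 iHAC2-iPS clones and 3 of the 4 iHAC-free lines thus lay below both ES lines, and F-N7 lay above them. The difference of the iHAC-free lines from ES cells was -3.04 (SE 1.16, limma adjusted p = 0.176) and was not called. Of the arrays left out in turn, only F-N7, the line that differed, gave a call when removed, at -4.27 (limma adjusted p = 0.0175). That call follows from which line was removed. With F-C5 below background these sizes are not exact. F-N7 also stood apart in Grb10, at 2.07 against 3.92, 3.39 and 3.78 in the other lines, with all 3 probes lowest there, and in Nap1l5. A probe for Kcnq1ot1 and a probe for Rasgrf1, a Ras exchange factor, were above background among the iHAC lines in F-N7 alone, at -1.37 and -3.15, while other probes of these genes showed no such rise.

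**Figure D4:**
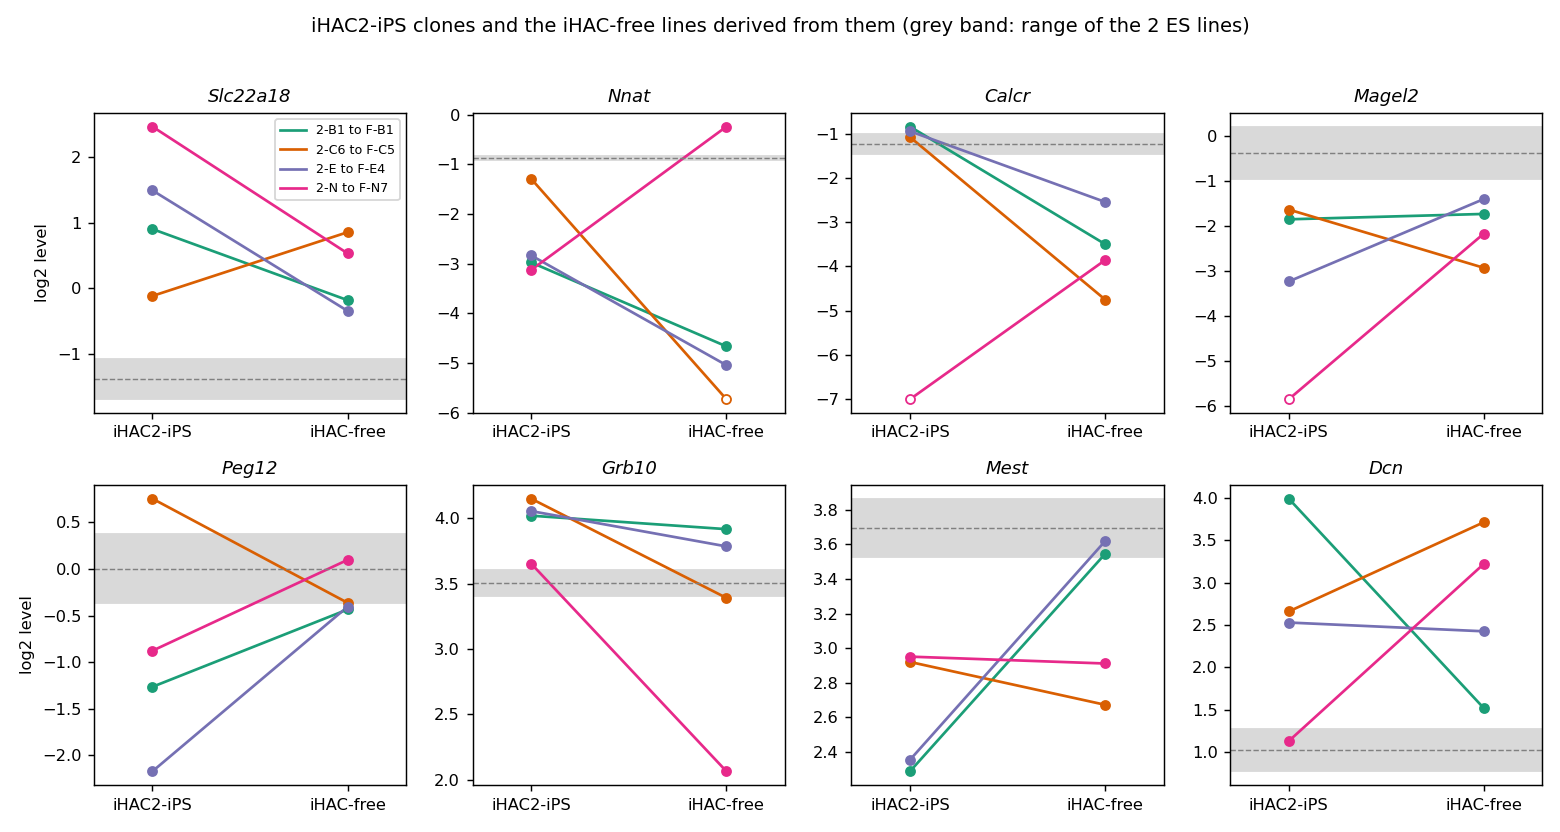
Log2 level (relative to the 75th percentile of the array) of 8 imprinted genes in each iHAC2-iPS clone (left) and in the iHAC-free line derived from it (right), joined by a line and with open points where not well above background, the grey band showing the range of the 2 ES lines. Nnat is lower in the derived line for 3 pairs and higher for 2-N with F-N7, and Calcr follows the same split.

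Among genes above background in both samples of a pair, at least 2-fold differences between a clone and its derived line were seen for 7 of 42 genes in 2-B1 and F-B1, 10 of 40 in 2-C6 and F-C5, 11 of 42 in 2-E and F-E4 and 10 of 38 in 2-N and F-N7. The line was the higher of the 2 for 2, 6, 6 and 8 of these. The shares were 16.7%, 25.0%, 26.2% and 26.3% of the genes, with 1 probe for each, where 11.8%, 15.5%, 10.5% and 7.89% of all probes above background in both samples were that far apart, and the difference between these shares was not tested. Calcr (brighter probe) was at -0.84, -1.08 and -0.94 in 3 clones and below background in 2-N, at -7.00, and was at -3.50, -4.75, -2.54 and -3.86 in the lines. Magel2, a MAGE family gene, was at -1.86, -1.64 and -3.24 and below background in 2-N, at -5.86, and was between -2.94 and -1.40 in the lines. Asb4, an ankyrin repeat protein, was below background in the same clone. Mest, a hydrolase family gene, was at 2.29, 2.92, 2.36 and 2.95 in the clones and 3.55, 2.67, 3.62 and 2.91 in the lines, against 3.86 and 3.53 in ES cells. Dcn, the matrix proteoglycan decorin and also a fibroblast product, was at 3.99, 2.66, 2.53 and 1.13 in the clones and at 1.52, 3.71, 2.42 and 3.22 in the lines, with no common direction.

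The spread between clones of 1 group was described by its SD, with no test. The median SD between the 4 clones was 0.43 for the 84 probes and 0.27 for all probes in iHAC1-iPS cells, 0.44 and 0.40 in iHAC2-iPS cells, and 0.29 and 0.22 in iHAC-free lines. An SD over 1 was found for 13 of 84 (15.5%, with 8.05% of all probes), 9 (10.7%, with 11.5%) and 4 (4.76%, with 3.63%). In iHAC1-iPS cells these 13 belonged to Slc22a2, Cdkn1c, Phlda2, Peg3, Peg10, Asb4, Calcr, Magel2, Nap1l5 and Slc38a4. Counted by array over the 35 genes above background everywhere, the number at least 2-fold from the ES mean was 8 to 13 in iHAC1-iPS clones, 3 to 9 in iHAC2-iPS clones, 1 to 5 in iHAC-free lines, 3 in 20D17 and 19 in MEFs. As shares of the 35 genes these were 22.9 to 37.1% in iHAC1-iPS clones, where 12.3 to 23.1% of all 19937 probes were that far from the ES mean, 8.57 to 25.7% in iHAC2-iPS clones with 8.56 to 19.5% of all probes, 2.86 to 14.3% in iHAC-free lines with 2.91 to 13.1%, and 54.3% in MEFs with 35.6%. The median of whole chromosomes carrying these genes moved by no more than 0.11 from the ES mean in any iHAC sample (969 probes on chromosome 6 and 1442 on chromosome 7).

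H19, a maternally expressed long non-coding RNA, and Igf2, the paternally expressed growth factor it neighbours, were called in no comparison. H19 was at 3.02 in B6ES and 0.75 in TT2, a wider gap than Igf2 showed (2.79 and 3.31). In the iHAC samples H19 ranged from 0.94 to 3.14 and Igf2 from 2.10 to 4.06, while MEFs had 6.69 and 7.96. Cdkn1c differed between the ES lines in the same direction as H19 (3.15 and 1.18), and so did Peg3 (0.39 and -1.31). With these gaps between 2 ES lines of different strains, differences from ES cells could not be detected for these genes unless large. In 20D17, with 1 array, Plagl1 was at 1.54, Phlda2 at 4.53, Slc22a18 at -1.19, Peg12 at -0.11, Grb10 at 3.25, Nnat at 0.69 and Nap1l5 at -4.07.

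Genes that set or keep imprints were measured beside them, in 1 list with Tet1, Tet2 and Tet3, which oxidise methylcytosine and do not keep it. The counts and medians of the list pool both kinds. Of a list of 14, 5 were called lower in iHAC1-iPS cells than in ES cells, 1 was called higher and 8 were not called, with a list median of -0.92 on the log2 scale. Those lower were the DNA methyltransferase Dnmt3a (-2.41, SE 0.45), its partner Dnmt3l (-7.75, SE 1.0), Dppa3 (-9.99, SE 0.80), Tet1 (-2.11, SE 0.52) and Zfp57 (-1.27, SE 0.38). Dppa3 was well above background in only 1 of the 4 iHAC1-iPS clones, so the size of its difference is not exact. Tet3, like Tet1 an enzyme that oxidises methylcytosine, was higher (1.90, SE 0.43). Zfp57 was at -1.34 and -1.30 in the ES lines and at -3.23, -1.84, -2.28 and -3.0 in the clones. Dnmt3b was at -0.70 and 0.50 in 1-A3 and 1-D6 and at 3.71 and 4.29 in 1-B and 1-C3, against 4.60 and 5.13 in the ES lines, and was not called. Trim28 (-0.999, SE 0.22, limma adjusted p = 0.00792) stayed just under 2-fold in iHAC1-iPS cells, and Ctcf (-0.53, adjusted p = 0.0462) further under it. None of the 14 was called in the iHAC2-iPS and iHAC-free comparisons with ES cells, where the list medians were -0.36 and -0.08. In iHAC2-iPS cells Trim28 (-0.80, limma adjusted p = 0.0366) and Setdb1 (-0.73, adjusted p = 0.0486) passed the p threshold but not 2-fold. Dnmt1, Uhrf1 and Smchd1 were called in no comparison.

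Markers of other lineages that use imprinted genes were mixed. Of 7 trophoblast markers measured, Esx1 was called higher and Cdx2 and Elf5 lower in iHAC1-iPS cells when compared with ES cells, and of 7 primitive endoderm markers Amn and Sox7 were called lower and none higher. Summed over 7 genes, the trophoblast markers stood at 1.78 to 3.01 in ES and 5.14 to 17.5 in iHAC1-iPS cells, and without Esx1 at 1.62 to 2.04 and 0.493 to 1.73. In the same groups the sums were, for the primitive endoderm markers, 1.89 to 8.51 and 0.725 to 9.20. Hand1 and Plac1 were above background in no iHAC1-iPS clone. The part of such cells in the values of Phlda2, Ascl2 and Slc22a2 was not tested.

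Other members were called nowhere or were at the limit of detection. Impact, Commd1, Zrsr1, Mcts2, H13, Gatm, Copg2, Inpp5f, Mkrn3, Kcnq1, Ascl2, Osbpl5, Cd81, Tssc4, Nap1l4 and Igf2r were called in none of the 5 comparisons, with differences from -1.39 to 1.12 on the log2 scale. Zim1 was well above background in MEFs alone, at -4.47. For 2 of the Rasgrf1 probes and for the dimmer Asb4 probe 2 arrays or fewer were above background. Among genes never called, the largest differences were those of Magel2 (-2.42 in iHAC1-iPS and -2.77 in iHAC2-iPS cells against ES cells) and Nnat, which had wide spreads between clones.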

How the data were processed

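RNA of 16 samples (500 ng each) was labelled with Cy3 and hybridised by the authors to 1-colour Agilent whole mouse genome arrays, and the deposited scanner files hold spot intensity on a linear scale, with the background subtracted in the processed signal. Per the file headers, probe positions refer to build mm9. The deposited value table holds log2 values that the authors scaled between arrays and centred for each probe, and differences between its columns matched the scanner values. Spots marked as outliers were left out and spots of 1 probe were averaged as log2 processed signal minus the 75th percentile of the array. The share of spots well above background was 54.2% to 65.8% and 0 spots were saturated, and the number of arrays limits the precision.

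A probe was tested if well above background on at least 1 array. All 16 arrays were fitted together in 6 groups with limma 3.58.1 (R 4.3.3), with Benjamini-Hochberg adjustment over 31415 probes, after a test on simulated data. Where every array of the dimmer group was below background, the fold is given above a background floor. It is the brighter mean over the mean floor of the dimmer arrays. The floor of an array is the lowest level of any probe well above background there, or the probe's own level if higher. This floor is not the detection limit of the probe, so the fold is no lower bound. With normexp background correction some of these differences were smaller. Groups came from the labels. Every member gene is named, and values in each sample are given for genes with a called probe and for partners in their cluster. The members and gene lists were chosen with earlier results of these data known. Genes with several probes are described probe by probe.

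The iHAC-free lines came from the iHAC2-iPS clones by the study's account, and deviations of a line and its clone correlated at -0.07, -0.22, 0.03 and 0.08 over 31387 probes, which leaves the pairing to rest on origin. Other settings were background correction by normexp (offset 50), quantile normalization, the deposited table, no filter or a strict filter on dim probes, slide or clone of origin as a block, the compared groups alone, 1 probe per gene, and each array left out in turn.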

Additional observations from a re-analysis of the deposited data

Results flagged for a closer look

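In 129 sets of 4 clones or lines, 6 had a sample far from the other 3, where chance gives about 1 in 20 (6.45 sets). Cdkn1c was at 4.53 in 1-B, with the next iHAC1-iPS clone at 1.88. Calcr was at -7.00 in 2-N, below background, with the next iHAC2-iPS clone at -1.08. Nnat was at -1.29 in 2-C6, with the next iHAC2-iPS clone at -2.84. Peg12 was at 0.10 in F-N7, with the next iHAC-free line at -0.36. In absolute terms 2 of the gaps were small: Nap1l4 was at 6.11 in 1-D6 with the others from 5.92 to 5.94, and Ube3a was at 3.44 in F-C5 with the next line at 3.56.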

How the results depend on the processing

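No difference of a called probe changed direction: of 656 values under other settings, 453 were still called and 203 were not. The direction was in large part fixed beforehand. Between iHAC1-iPS and iHAC2-iPS cells 15 of 21 called probes had no overlap, and in the other comparisons all had none. Leaving out an array cannot reverse such a difference. Differences in the deposited table matched the scanner values, so its calls largely repeat the main fit. Between iHAC1-iPS and iHAC2-iPS cells, 7 probes of Phlda2, Slc22a18, Ndn, Peg12, Plagl1 and Nap1l5 were called under every setting run, and in the other comparisons none was. The settings were not the same: these groups share no slide, and slide as a fixed block was not run for them. Slide as a random block (correlation -0.12) raised their calls over all probes from 6273 to 6681. Dependence of the 7 on slide was thus not tested. The number of member probes called against ES cells in iHAC1-iPS cells was 19. It was 0 with slide as a block (7.77% of all probes called) and 10 with the compared groups alone (12.4%). With 1 probe per gene it was 8 of 46, where 14.7% of all 21213 genes were called. In iHAC2-iPS cells, 3 became 1 with normexp, 5 with quantile normalization, 7 with no filter on dim probes, 0 with the compared groups alone and 1 with 1 probe per gene. In iHAC-free lines, 2 became 0 with normexp (0.427% of all probes called), 1 with quantile normalization (0.309%) and 4 with slide as a random block (2.22%). They became 0 with the compared groups alone (0.0446%) and 0 with 1 probe per gene (0.382% of all genes). Between iHAC2-iPS and iHAC-free cells, 1 became 0 with normexp (0.821% of all probes called), with slide as a block (0.567%) and with the replicate block of clone of origin (0.442%). It was also 0 with the compared groups alone (0.331%) and with 1 probe per gene (0.806% of all genes). Between iHAC1-iPS and iHAC2-iPS cells, 21 became 11 of 46 with 1 probe per gene, where 20.2% of all genes were called. With single arrays left out the counts of member probes were 0 to 17, 0 to 8, 0 to 1, 0 to 1 and 12 to 23 in that order. Those fits called 1867 to 4718, 319 to 3733, 16 to 54, 40 to 983 and 5014 to 7321 of all probes. Over all probes, iHAC2-iPS against ES cells gave 19 calls with the compared groups alone in place of 2136, and iHAC-free lines 14 in place of 114. The cause of these changes was not tested, beyond the fewer samples or probes that some settings hold.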
